A study of Solanum lycopersicum with 4 samples.

Results

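The degradome of tomato (Solanum lycopersicum) fruit at the mature green stage was set against that of fruit at 5 days after pollination (young fruit). The comparison took in every cDNA listed in both libraries with a whole-cDNA total of 50 or more tags per 10000000 (TP10M) in either of them. Of 5373 cDNAs with an entry in the deposited tables, 2355 were listed in both libraries and 2244 of those passed the minimum, while 111 lay under it in both. A further 1361 cDNAs were listed in young fruit only, 1024 at mature green only, and 633 in neither. Both libraries came from whole fruits of the variety Ailsa Craig, grown in a greenhouse on rockwool, with 1 library per stage. The same series holds 1 library each of breaker fruit, at the onset of colour change, and of fruit 7 days after breaker (the last library), which are given here only beside the members.

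PARE (parallel analysis of RNA ends) captures uncapped 5′ ends of polyadenylated RNA fragments, so a tag marks a place where an RNA had been cut or was being degraded. A whole-cDNA total depends both on how much of a transcript there was and on how much of it was uncapped, and these cannot be told apart here. In a plant, a microRNA guides an argonaute protein to a matching site in an mRNA, and the cut leaves many fragments with one shared 5′ end. In the days after pollination a tomato fruit is known to grow by cell division, and later by expansion of the cells, until the full-sized green fruit with maturing seeds is reached. Ripening, with ethylene synthesis, wall softening and pigment formation, follows after the mature green stage.

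Totals among the members ran from 9 to 60964 TP10M in young fruit, with a median of 344, and from 1 to 56037 at mature green, with a median of 305. Members lower at mature green outnumbered members higher there. Of the 2244 members, 234 (10.4%) were higher at mature green by 2-fold or more and 420 (18.7%) lower by 2-fold or more, on log2(total + 1). The other 1590 lay between these limits. The counts given below for each list can be read against these shares. The median log2 ratio of mature green over young fruit was -0.23, with quartiles of -0.78 and 0.32. Scaling the libraries by median-of-ratios size factors added about 0.23 to the log2 values, and less where a total was low. It brought the median to -0.01 and gave 306 higher and 294 lower members. The share of higher calls among all calls was thus 35.8% as deposited and 51.0% after scaling. This scaling centres the median ratio of nearly the same cDNAs, so the scaled median and the more even calls largely follow from it. With 1 library per stage there is no replicate error, no test was possible, and each ratio compares these libraries rather than the stages. No source used here gives the library depths. Totals were not divided by cDNA length, so each ratio compares a gene with itself.

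**Figure D1:**
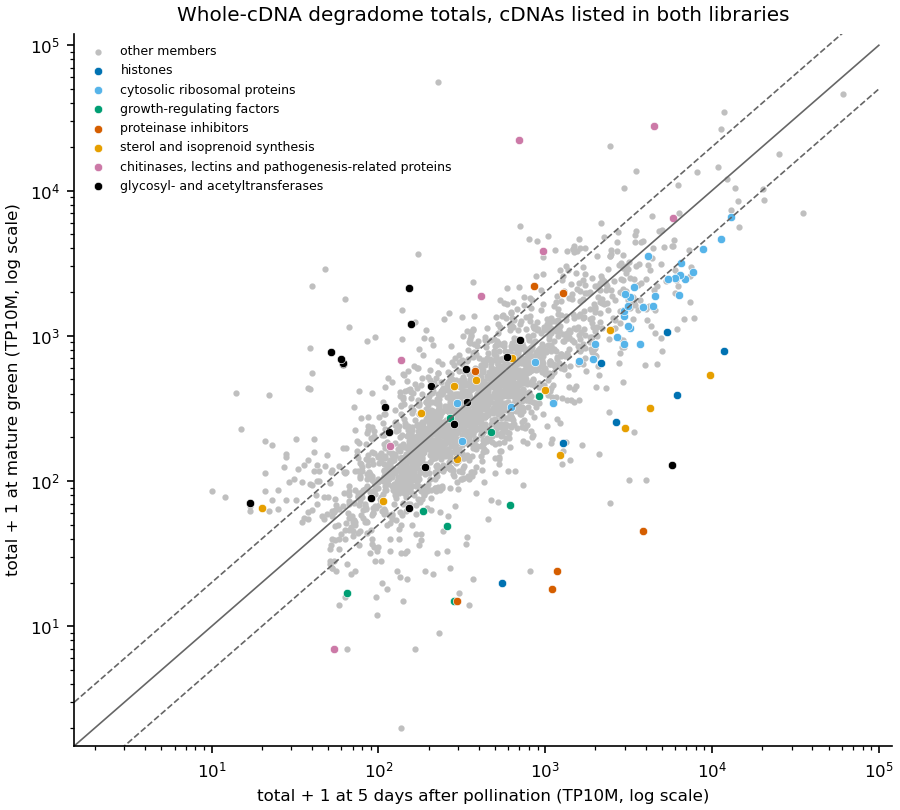
Whole-cDNA total at mature green (vertical, total + 1 in TP10M, log scale) against that in young fruit (horizontal, same scale) for the 2244 members, 1 point per cDNA. The solid line marks equal totals and the dashed lines a 2-fold difference. All 7 histones lie below the lower dashed line, and Solyc04g071610 stands highest above the upper line at 227 against 56037 TP10M.

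Of 36 members for cell division 16 were lower at mature green and none higher, and 7 of the 16 were histones. All 7 histone members (histones package DNA and are made in S phase) were at least 2-fold lower at mature green, with a median log2 ratio of -3.38. The histone H2A Solyc01g099410 had 11738 TP10M in young fruit, 788 at mature green and 236 at breaker. The histone H3 Solyc12g056540 had 553 and 19 TP10M, a log2 ratio of -4.79, and the linker histone H1 Solyc03g119130 had 2153 and 645, a log2 ratio of -1.74. The H1 was the nearest of the 7 to equality and the H3 the farthest. In bulk fruit, fewer dividing cells and less of these RNAs per cell cannot be told apart.

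Among 13 members for DNA replication and repair, 5 were lower and none higher, with a median of -0.72. They were a DNA polymerase (Solyc02g093300, 332 and 36 TP10M), a GINS subunit psf3 (Solyc05g008620, 190 and 23), a replication licensing factor (Solyc01g110130, 1330 and 184) and 2 single-stranded DNA-binding proteins. The GINS complex and licensing factors act in loading and running the replicative helicase. The mismatch repair genes of the same list lay near equality, as with the mutS homologue Solyc07g018350 at 309 and 332 TP10M. Of 16 cyclin, kinesin and mitosis members 4 were lower and none higher. The kinesin Solyc12g011290, a microtubule motor, had 230 and 8 TP10M, and cyclin B2 (Solyc07g066660), a regulator of entry into mitosis, had 610 and 170. The cyclin-dependent kinase A-1 (Solyc10g037910) had 136 and 85 TP10M and did not reach 2-fold.

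Chromatin genes were mixed. Of 37 members 10 were lower and 4 higher, with a median of -0.51. A cytosine-specific methyltransferase (Solyc12g100330), of the enzymes that methylate DNA, had 525 TP10M in young fruit and 130 at mature green. A bromodomain and PHD finger gene (Solyc07g062100) had 97 and 11 TP10M, the lowest ratio of the list at -3.03. Nucleosome assembly proteins, which carry histones to DNA, went both ways. Solyc03g116170 had 773 and 243 TP10M, whereas Solyc08g063000 had 75 and 414, the highest ratio of the list at 2.45.

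Ribosomal protein totals were lower at mature green nearly throughout. Of 34 cytosolic ribosomal proteins 24 were at least 2-fold lower and none higher, with a median log2 ratio of -1.26, and 33 lay below 0. The 60S ribosomal protein L23a (Solyc09g005720) had the highest total, 13068 TP10M in young fruit against 6595, just short of 2-fold. The L14 gene Solyc06g083820 had 3673 and 880 TP10M, a log2 ratio of -2.06, and L32 (Solyc04g005590), at 293 and 343, was the one gene of the list above 0. Ribosomal proteins of plastids and mitochondria followed the same direction, with 13 of 20 lower, none higher and a median of -1.21. Among them the 50S protein L4 (Solyc07g061900) had 1025 and 238 TP10M, and the mitochondrial L43 (Solyc04g014390) had 483 and 554. After size-factor scaling 18 of the 34 cytosolic genes and 10 of these 20 remained at least 2-fold lower.

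Translation factors were lower by less. Of 28 members 6 (21.4%) were lower, near the 18.7% over all members, and 1 higher, with a median of -0.43. Elongation factor 1-alpha (Solyc06g005060), which brings aminoacyl-tRNA to the ribosome, had 20195 and 10315 TP10M. The initiation factor 3 subunit 7 (Solyc02g078120) had 1105 and 457 TP10M, the lowest ratio at -1.27. SUI1 (Solyc07g064150), an initiation factor that takes part in choosing the start codon, was the one member higher, at 2167 and 5975 TP10M. With scaling 1 of the 28 stayed lower. All 7 aminoacyl-tRNA synthetases lay below 0, but 1 passed 2-fold, the glycyl-tRNA synthetase Solyc11g039830 at 915 and 441 TP10M.

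In the plastid group the light-harvesting genes stood apart from the photosystem genes. The 3 chlorophyll a/b binding proteins, which hold the antenna pigments of the photosystems, were all lower. Solyc07g047850 had 6204 TP10M in young fruit, 1106 at mature green and 213 at breaker. Solyc02g070980 had 3963, 625 and 226 TP10M in the same order. Of the 22 other plastid members 2 were lower and 2 higher (2 and 4 after scaling), with a median of -0.44. The photosystem I subunit III gene Solyc02g069450 had 3589 and 2251 TP10M, and the oxygen-evolving enhancer protein 2 (Solyc07g044860) had 3762 and 4435. Both lay within 2-fold.

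Tubulins, the subunits of microtubules, had 8 members, of which 2 were lower and none higher. The alpha-3 chain Solyc08g006890 had 25330 and 17962 TP10M and the alpha-3 chain Solyc04g077020 had 12224 and 12092. The beta chains Solyc06g076640 (7742 and 1329 TP10M) and Solyc10g085020 (6750 and 1311) were the 2 that passed 2-fold. At breaker these alpha-3 chains had 2902 and 896 TP10M.

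**Figure D2:**
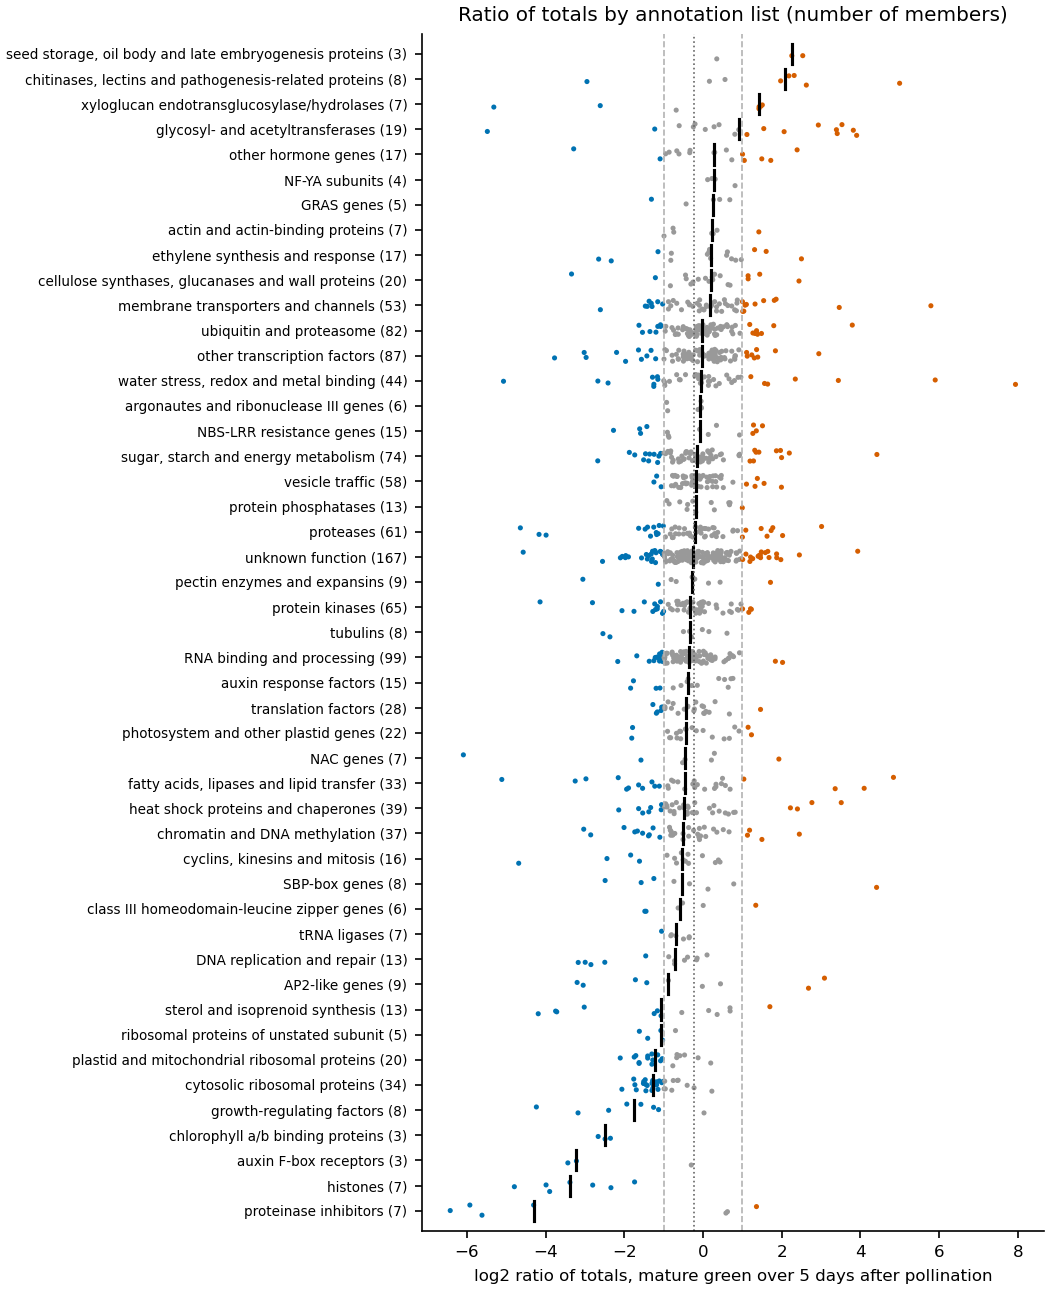
The log2 ratio of totals (horizontal) for each member of each annotation list, with the number of members in parentheses. Orange points are at least 2-fold higher at mature green, blue points at least 2-fold lower, black bars are list medians, the dotted line is the median of all members at -0.23 and the dashed lines mark 2-fold. The proteinase inhibitors have the lowest list median at -4.30. The highest, 2.26, is that of the seed storage, oil body and late embryogenesis list. Its 3 members are a dehydrin and 2 late embryogenesis abundant proteins.

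Wall genes divided by gene rather than by class. Xyloglucan endotransglucosylase/hydrolases (XTHs) cut and rejoin the xyloglucan chains that tie cellulose together. XTH5 (Solyc07g052980) had 4017 TP10M in young fruit and 100 at mature green, a log2 ratio of -5.31, and the other XTH5 gene (Solyc01g099630) had 2917 and 477. On chromosome 3, 4 neighbouring XTH9 genes were higher, from 1355 and 3856 TP10M in Solyc03g093080 to 1487 and 4129 in Solyc03g093130. Their totals differ by so little that they may rest on the same tags, and 4 higher of 7 members need not be 4 independent genes. Among 9 pectin enzymes and expansins 2 were lower and 1 higher. The beta-galactosidase Solyc06g062580 had 455 and 54 TP10M, whereas an expansin-like gene (Solyc01g112000) had 538 and 1769. Expansins loosen the wall without cutting it.

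Of 20 members for cellulose synthases, glucanases and wall proteins 4 were higher and 2 lower. A proline-rich protein (Solyc04g015020) had 264 and 1437 TP10M and endoglucanase 1 (Solyc04g081300) had 973 and 2646. The glucan endo-1,3-beta-glucosidase A6 (Solyc07g049370), an enzyme that degrades callose-type glucans, had 1406 TP10M in young fruit and 138 at mature green. It was at 4 TP10M in the last library.

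Of 13 sterol and isoprenoid members 7 were lower and 1 higher, and 5 and 1 after scaling. The mevalonate route makes the building blocks of sterols, and its first committed steps pass through hydroxymethylglutaryl-CoA (HMG-CoA). The HMG-CoA synthase Solyc08g080170 had 9754 TP10M in young fruit and 535 at mature green, and its neighbour Solyc08g080160 had 3020 and 229. A sterol reductase (Solyc06g074090) had 4233 and 315 TP10M, and an Erg28-like gene (Solyc04g077150) had 1229 and 151. The HMG-CoA reductase Solyc03g032020, the next enzyme of the route, had 180 and 291 TP10M. Of the carotenoid branch, phytoene desaturase (Solyc03g123760) had 281 and 453 TP10M, and the chromoplast lycopene beta-cyclase (Solyc06g074240), the one higher member, had 19 and 64.

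Lipid genes spanned the widest range of any metabolic list. Of 33 members 11 were lower and 4 higher, with a median of -0.46. After scaling 9 were lower and 4 higher. ATP citrate lyase (Solyc12g099260), which supplies cytosolic acetyl-CoA, had 1669 and 175 TP10M. An acetyl-CoA carboxylase-like gene (Solyc11g061700), the enzyme class of the committed step, had 1271 and 161 TP10M. Acyl carrier protein (Solyc06g054510), which holds the growing fatty acid chain and had the highest total of the list, had 2699 and 3809 TP10M. The GDSL lipase Solyc12g017460 had 2453 and 70 TP10M, and another GDSL lipase, Solyc03g111550, had 66 and 1145. The highest ratio was that of a long-chain fatty acid CoA ligase (Solyc03g025720), which activates free fatty acids, at 62 and 1804 TP10M. The phospholipase D Solyc08g066800 had 94 and 974 TP10M, while Solyc06g068090, also a phospholipase D, had 1562 and 848.

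The proteinase inhibitors gave the lowest ratio of all members. They block digestive proteases of insects and are known to be induced by wounding. The chymotrypsin inhibitor-2 Solyc09g084450 had 3857 TP10M in young fruit, 44 at mature green and 4 at breaker, a log2 ratio of -6.42. Its neighbours Solyc09g084460 (1091 and 17 TP10M) and Solyc09g084480 (1175 and 23), and Solyc10g086100 on chromosome 10 (295 and 14), were lower too. The 3 cysteine proteinase inhibitors of the list differed in direction. Solyc01g009020 had 850 and 2183 TP10M, and the other 2 lay within 2-fold above 0. With 4 lower and 1 higher, the 7 members were split by type of inhibitor.

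Lectins, chitinases and related defence proteins were mostly higher at mature green, 5 of 8 against 1 lower. An agglutinin isolectin I (Solyc03g116230), a chitin-binding lectin, had 691 TP10M in young fruit, 22097 at mature green, 15662 at breaker and 10037 in the last library. A chitinase-like protein (Solyc09g098540) had 4503, 27817, 3216 and 1683 TP10M in the same order, so its total was highest at mature green. A second chitinase-like gene (Solyc12g098810) had 136 and 682 TP10M. Snakin-2 (Solyc11g017440), an antimicrobial peptide, was the one lower member, at 53 and 6 TP10M. The defensin Solyc07g007760 had 5801 and 6500 TP10M.

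Of 61 protease members 8 (13.1%) were higher and 13 (21.3%) lower, near the shares over all members, and 9 and 8 after scaling. The vacuolar processing enzyme-1b (Solyc08g065610), a protease that matures vacuolar and seed proteins, had 700 TP10M in young fruit, 5662 at mature green, 14804 at breaker and 33970 in the last library. Serine carboxypeptidase 1 (Solyc06g083020) had 348 and 13 TP10M, a log2 ratio of -4.64. Of 82 ubiquitin and proteasome members 9 were higher and 7 lower, and 11 and 3 after scaling. The E3 ligase RNF34 (Solyc09g005320) had 39 and 554 TP10M, and the proteasome subunit 13 (Solyc05g053140) had 607 and 196.

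The highest ratio of all belonged to a water-stress gene. Water-stress inducible protein 3 (Solyc04g071610) had 227 TP10M in young fruit and 56037 at mature green, a 246-fold difference and a log2 ratio of 7.94. It went on at 76598 and 84078 TP10M in the later libraries. Its largest listed peak at mature green held 893 TP10M and was not the highest position of the cDNA, which is not among the listed ones. A universal stress protein (Solyc04g014600) was next, with 47 and 2868 TP10M, whereas another gene of that family, Solyc06g060360, had 804 and 23. Across the 44 members for water stress, redox and metal binding 7 were higher and 8 lower, and 10 and 6 after scaling. Metallothionein type 2 (Solyc09g010800), which binds metal ions, had 11351 and 26380 TP10M, and the peroxidase Solyc06g076630 had 5027 and 789.

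Among 39 heat shock proteins and chaperones 7 (17.9%) were lower and 4 (10.3%) higher, close to the shares over all members, and 5 were lower and 6 higher after scaling. Calreticulin 2 (Solyc01g100380), a chaperone of the endoplasmic reticulum, had 14439 and 5562 TP10M, and the HSP90 gene Solyc12g015880 had 7439 and 2961. The HSP90 gene Solyc07g065840 had 10881 and 14482 TP10M, within 2-fold. Heat shock protein 1 (Solyc09g075950), a ClpB chaperone (Solyc03g115230) and a heat stress transcription factor (Solyc03g026020) were higher. The heat stress factor had 138 TP10M in young fruit, 946 at mature green and 1889 at breaker.

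**Figure D3:**
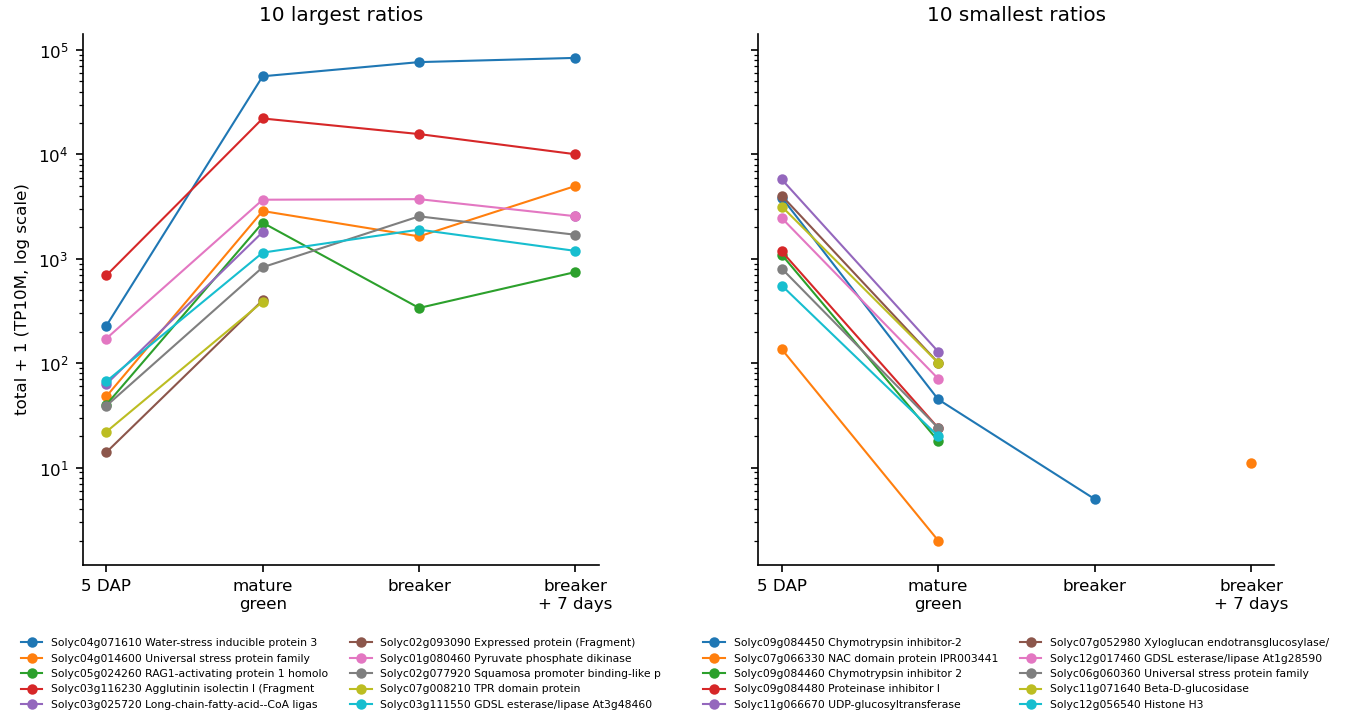
Whole-cDNA totals (vertical, total + 1 in TP10M, log scale) of the 10 members with the largest and the 10 with the smallest ratio across the 4 libraries, where 5 DAP is 5 days after pollination. A missing point means that the cDNA was not listed in that library, and lines join neighbouring libraries that both list it. Of the 10 smallest, Solyc09g084450 was listed at breaker, at 4 TP10M, and Solyc07g066330 in the last library, at 10 TP10M.

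Ethylene genes were split at these stages, both of which precede ripening. Of 17 members 3 were higher and 3 lower, and 5 and 2 after scaling. The ethylene response factor 2a Solyc03g123500 had 35281 TP10M in young fruit, the second highest total of the members there, and 7013 at mature green. An ethylene receptor (Solyc07g056580) had 133 and 407 TP10M, and an ethylene insensitive 3 class factor (Solyc01g009170), of the regulators that carry the ethylene signal into the nucleus, had 191 and 1087. The ACC oxidase Solyc07g049530, of the last step of ethylene synthesis, had 553 and 1374 TP10M, and was at 16973 at breaker. Its neighbour Solyc07g049550 had 422 and 474 TP10M, and 9934 at breaker. For both genes the difference between the green stages was small beside that between mature green and breaker.

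Of 17 other hormone members 5 were higher and 2 lower. An auxin responsive protein (Solyc01g097290) had 1266 and 129 TP10M, the lowest ratio of the list at -3.28, while the auxin responsive protein Solyc03g120390 had 1368 and 2836. A gibberellin 20-oxidase (Solyc11g072310), which makes active gibberellin precursors, had 27 and 146 TP10M. The abscisic acid receptor PYL9 (Solyc08g082180) had 105 and 349 TP10M.

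Among 53 transporter and channel members 11 were higher and 8 lower, and 15 and 6 after scaling. The RAG1-activating protein 1 homologue Solyc05g024260 belongs to the family of SWEET sugar exporters, and had 39 TP10M in young fruit, 2215 at mature green and 337 at breaker. Peptide transporter 1 (Solyc03g120550) had 1587 and 4624 TP10M. Pyruvate phosphate dikinase (Solyc01g080460), which makes phosphoenolpyruvate, had 171 and 3680 TP10M. It was the highest of 74 sugar, starch and energy members, of which 10 were higher and 11 lower, and 13 and 8 after scaling. Glyceraldehyde 3-phosphate dehydrogenase (Solyc05g014470), of glycolysis, had 20388 and 8619 TP10M.

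Of 19 glycosyl- and acetyltransferases 9 were higher and 2 lower, with a median of 0.91. The UDP-glucosyltransferase Solyc11g066670 had 5751 TP10M in young fruit and 128 at mature green, whereas Solyc09g092500, of the same enzyme class, had 51 and 778, and 2688 in the last library. On chromosome 8, 4 N-acetyltransferase genes were higher together at mature green and low at breaker. Solyc08g068690 had 151, 2147 and 314 TP10M in young fruit, mature green and breaker, and Solyc08g068700 had 156, 1197 and 101. Solyc08g068710 and Solyc08g068770 had 60 and 59 TP10M in young fruit against 648 and 693. Genes so close together may share tags, so the 9 higher members need not be 9 independent genes.

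Members with the same annotation and neighbouring locus numbers (50 or fewer apart) formed 34 pairs. In 8 pairs both genes were higher, in 6 both lower, in 14 both between the limits, and in 6 the calls differed. In 1 of those 6, the phosphoglycerate mutase genes Solyc01g098580 and Solyc01g098590, the calls were opposite, with log2 ratios of -2.67 and 1.28. The B3 domain genes Solyc01g106230 and Solyc01g106250 were both lower, at -3.02 and -3.77. The genes for translationally controlled tumour protein, a growth-associated protein, were both higher. Solyc01g099770 had 11778 and 34746 TP10M, and its neighbour Solyc01g099780 had a log2 ratio of 1.82. The DNA polymerase V genes Solyc01g106220 and Solyc01g106240 had equal totals, at 1242 and 753 TP10M. No source used here says how tags that match several copies were counted, so members of a pair may share tags.

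The gene families with known microRNA targets, defined by annotation words, held 86 members. Of these 9 were higher and 29 lower, with a median of -0.42, beside 10.4% higher and 18.7% lower over all members. A member need not have a site of its class, and 44 sites in members are taken up below. Growth-regulating factors (GRFs), transcription factors of cell proliferation and targets of miR396, had 7 of 8 members lower, none higher and a median of -1.76. GRF1 (Solyc04g077510) had 613 and 67 TP10M, and GRF12 (Solyc08g079800) had 281 and 14. GRF5 (Solyc12g096070), at 267 and 272 TP10M, was the exception. Of 3 auxin F-box receptors, which are targets of miR393, 2 were lower. Solyc09g074520 had 269 and 24 TP10M and Solyc06g008780 had 64 and 6, while Solyc02g079190 had 295 and 240.

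Auxin response factors (ARFs) bind DNA to switch auxin-responsive genes. Of 15 members 4 were lower and none higher, and 2 were lower after scaling. ARF8 (Solyc02g037530), known in fruit set, had 1533 and 450 TP10M, and ARF16 (Solyc07g008020) had 117 and 32. The 2 highest AP2-like ratios belonged to genes with totals under 100 TP10M in both libraries, among them Solyc01g096860 at 9 and 84. In contrast, 4 AP2-like genes were lower, down to 210 and 22 TP10M in Solyc10g084340. AP2a (Solyc03g044300), a known regulator of ripening and target of miR172, had 267 and 364 TP10M and reached 5359 at breaker. The NAC gene Solyc07g066330 had 135 TP10M in young fruit and 1 at mature green, a log2 ratio of -6.09. Class III homeodomain-leucine zipper genes had 2 lower and 1 higher of 6, with Solyc12g044410 the higher one at 444 and 1127 TP10M.

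The SBP-box genes, targets of miR156 and miR157, differed widely among themselves. CNR (Solyc02g077920), the gene of the Colorless non-ripening mutant, had 38 TP10M in young fruit, 829 at mature green, 2549 at breaker and 1698 in the last library. Its log2 ratio of 4.41 was the eighth largest of the members. Solyc10g078700 had 660, 117, 7 and 4 TP10M in the same order, and in all 3 of 8 were lower. Resistance genes of the NBS-LRR type, targets of miR482 and related small RNAs, had 4 higher and 4 lower of 15. All 4 NF-YA members and all 6 argonaute and ribonuclease III members lay within 2-fold, apart from 1 NF-YA gene that was higher after scaling. The medians of the NBS-LRR and argonaute lists moved from -0.09 to 0.14 with scaling.

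The value at the cut position was not used to choose the members, and could be set beside the total. Across 44 sites in members of these classes with a category 0 or 1 peak at position 10 in either library, the peak was 2-fold higher at mature green at 14 sites and lower at 17. (CleaveLand's category 0 marks the single highest position of a cDNA, and category 1 a shared highest position.) The median share of the total at the peak was 25.6% in young fruit and 26.3% at mature green. Over all members, the largest listed peak held a median of 0.20% and 0.18% of the total. Sites were kept for a peak at the highest position of their cDNA in either library. A larger share there follows from that choice. With the peak taken out of the total, the peak's ratio differed from that of the rest of the cDNA by 2-fold or more at 25 of the 44 sites. At 13 sites the peak was relatively higher at mature green, and at 12 relatively lower. The sites of Solyc02g064960 and Solyc02g093150 have equal peaks, as do those of Solyc08g066500 and Solyc12g044410. They may share tags, yet are counted separately, and taking out a shared peak need not leave the gene's own rest. Some sites reached category 0 or 1 in 1 library alone. Among the 33 sites of category 0 in both libraries, 18 differed by 2-fold or more.

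**Figure D4:**
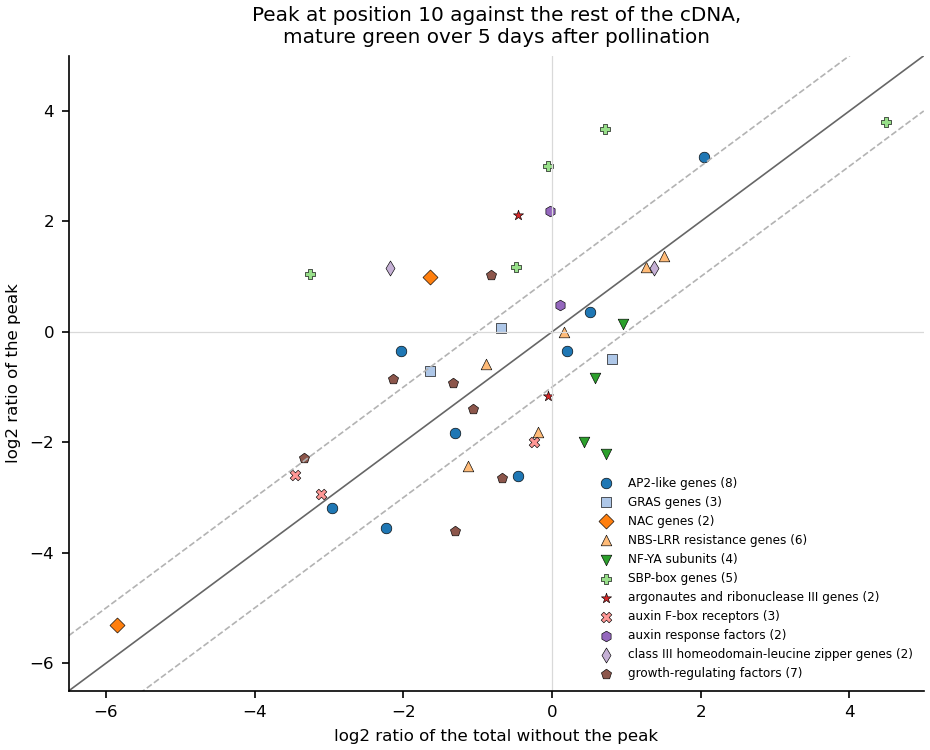
The log2 ratio of the peak at position 10 (vertical), mature green over young fruit, against that of the total without the peak (horizontal), for 44 sites in members of the microRNA target classes. The solid line marks equal ratios and the dashed lines a 2-fold difference between them. The CNR site has peaks of 7 and 111 TP10M, and the 4 NF-YA sites, 1 of them kept through young fruit alone, lie below the solid line.

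At the miR156 and miR157 sites of SBP-box genes the peak was higher at mature green at 5 of 5 sites, while 1 of the 5 totals was higher and 1 lower. Of these sites Solyc04g045560, Solyc05g012040 and Solyc05g015510 reached category 0 at mature green only, so they were kept through the library where the peak is high, and the count of 5 only describes the sites kept. CNR and Solyc10g078700 were category 0 in both libraries. In Solyc10g078700 the peak was 24 TP10M in young fruit and 51 at mature green, and its share of the total 3.64% and 43.6%. In Solyc05g015510 the peak was 3 and 50 TP10M with totals of 520 and 895. In CNR the peak was 7 and 111 TP10M, and its share was 18.4% and 13.4%. The ratio of the CNR peak lay within 2-fold of that of the rest of its cDNA. The peaks of the other 2 sites were 17 TP10M or less.

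The NF-YA genes, subunits of a CCAAT-binding complex and targets of miR169, had 4 sites. In Solyc01g087240 the peak was 133 TP10M in young fruit and 28 at mature green, with totals of 337 and 366. Its share was 39.5% and 7.65%. In Solyc08g062210 the peak was 142 and 79 TP10M with totals of 523 and 649. In Solyc01g006930 the peak was 28 and 31 TP10M with totals of 128 and 226. The share at the site was lower at mature green at these 3 sites, which were category 0 in both libraries. The fourth site, in Solyc03g121940, had peaks of 7 and 1 TP10M and was kept through the young fruit library alone.

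The argonaute genes had nearly equal totals and unequal peaks. The gene annotated ARGONAUTE 1 with the miR403 site (Solyc02g069260) had totals of 2317 and 2258 TP10M and peaks of 155 and 679. The one with the miR168 site (Solyc06g072300) had totals of 2589 and 2375 TP10M and peaks of 225 and 100. The share at the site was 6.69% and 30.1% in the first, and 8.69% and 4.21% in the second. At the miR160 site of ARF16 (Solyc06g075150) the peak was 11 and 54 TP10M with totals of 74 and 116.

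At the miR396 sites of GRFs, 4 of 7 peaks were lower and 1 higher. GRF3 (Solyc08g075950) had peaks of 543 and 205 TP10M, 59.5% and 53.7% of its totals of 913 and 382. GRF5 (Solyc12g096070), the member with equal totals, had peaks of 82 and 168 TP10M. At the miR172 sites of AP2-like genes 4 of 8 peaks were lower and 1 higher. AP2a had peaks of 127 and 164 TP10M, and Solyc06g075510 had 146 and 23. At the miR171 sites of GRAS genes none of 3 peaks passed 2-fold. Solyc08g078800 had peaks of 164 and 100 TP10M with totals of 574 and 231. At the miR164 site of the NAC gene Solyc07g066330 the peak was 78 TP10M of a total of 135, and then 1 of 1.

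Several sites carried the same peak values in more than 1 gene, in all 4 libraries. The miR165 and miR166 site gave 63 TP10M in young fruit and 142 at mature green in each of Solyc03g120910, Solyc08g066500 and Solyc12g044410. Their totals differed, at 1103 and 1108, 874 and 320, and 444 and 1127 TP10M. The AP2-like genes Solyc02g064960 and Solyc02g093150 both had miR172 peaks of 170 and 133 TP10M, and 4 NBS-LRR genes had miR6027 peaks of 27 and 7. A tag there may match each of these genes, and the peak of 1 gene cannot be told apart from that of the others.

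Outside the classes taken up here, which leave out the MYB genes of miR159, large peaks were few. In the abscisic acid receptor PYL8 (Solyc01g095700) the peak was 23 TP10M of 251 in young fruit and 141 of 309 at mature green, 9.16% and 45.6%. It was category 0 in both libraries, but was listed opposite position 9 of miR156 and miR157, with an alignment penalty of 7. In a glutamate decarboxylase (Solyc05g054050) the peak at position 10 of miR396 was 1 and 17 TP10M, with totals of 195 and 85. The MYB gene Solyc06g073640, with a miR159 site, had peaks of 58 and 35 TP10M, and Solyc01g009070, also a MYB gene with a miR159 site, had 10 and 34.

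In young fruit the highest total of all members lay within 2-fold. The serine/threonine protein kinase gene Solyc12g038920 had 60964 TP10M in young fruit and 46341 at mature green, and was listed through peaks of 1 and 0 TP10M. Ubiquitin (Solyc07g064130) had 13639 and 10374 TP10M. The other genes among the 10 largest and 10 smallest ratios belonged to no list. A tetratricopeptide repeat gene (Solyc07g008210) had 21 and 387 TP10M, an expressed protein (Solyc02g093090) 13 and 400, and a beta-D-glucosidase (Solyc11g071640) 3166 and 100. The shares of the larger regulatory lists can be read against the 10.4% higher and 18.7% lower over all members. Among 87 other transcription factors 8 were higher and 10 lower, and 13 and 9 after scaling. They ran from the B3 gene Solyc01g106250 at 2101 and 153 TP10M to the MYB gene Solyc11g072060 at 22 and 176. Among 99 RNA-binding and processing members 2 were higher and 15 lower, and 4 and 4 after scaling. Of 65 protein kinases 4 were higher and 13 lower, and 7 and 7 after scaling. Of 58 vesicle traffic members 5 were higher and 3 lower, and 5 and 1 after scaling. Genes of unknown function, 167 members, had 18 higher and 24 lower, and after scaling 25 higher and 16 lower.

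Being listed in 1 library only varied with the total and with the number of distinct listed positions of a cDNA. A cDNA has a listed total only where at least 1 predicted site has a listed peak, so a cDNA without one may still have tags. Among cDNAs listed in young fruit, the share also listed at mature green went from 45.2% in the lowest quintile of totals to 79.0% in the highest. It was 15.2% for cDNAs with 1 distinct listed position and 87.7% for those with 3 or more. Positions were counted over all 4 libraries and over microRNA positions 9, 10 and 11, so 1 alignment can count as 3. Listing in a second library can add positions, so part of this rise is built into the count. Of the 1361 cDNAs listed in young fruit only, 902 (66.3%) had no listed peak above 0 TP10M. The same held for 698 of the 1024 listed at mature green only (68.2%). In both libraries every peak listed at 0 TP10M was of category 4, the last of CleaveLand's categories, and no category 4 peak was above 0. The values are rounded, so a peak of 0 TP10M need not mean that no tag was there. No ratio was formed for these cDNAs.

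**Figure D5:**
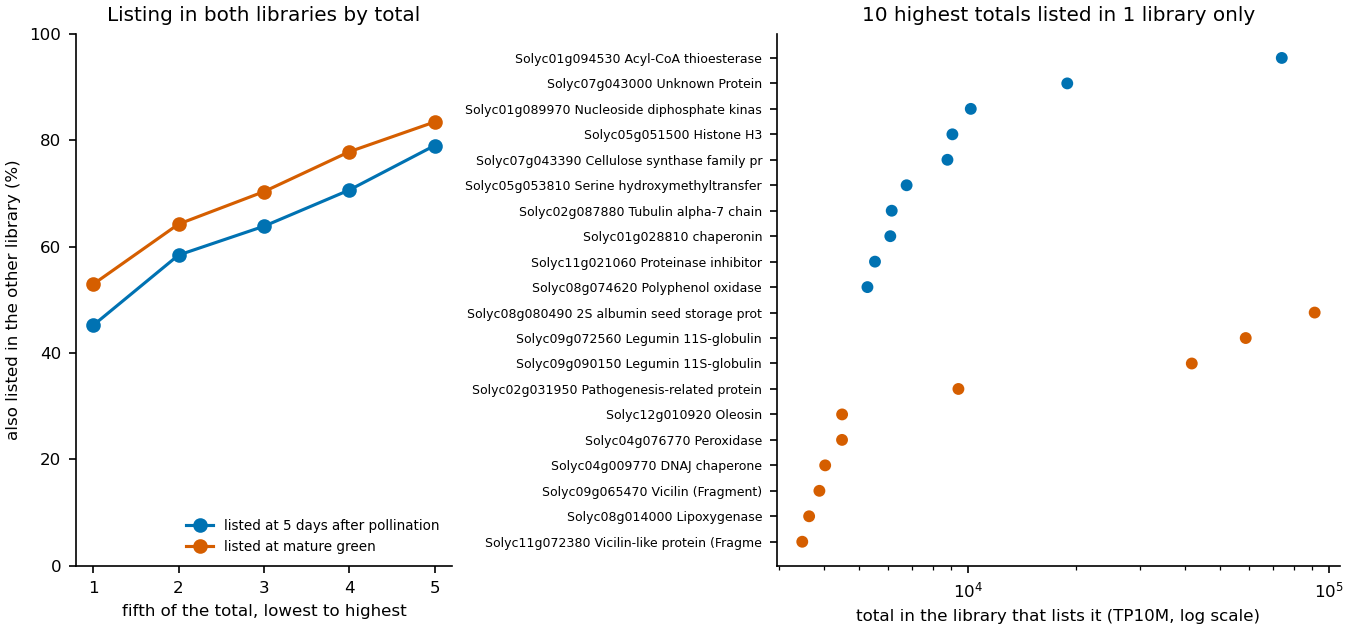
Left, the percentage of cDNAs also listed in the other library (vertical) by quintile of the total in the library named (horizontal), from 45.2% to 79.0% for those listed in young fruit. Right, the total (horizontal, TP10M, log scale) of the 10 highest cDNAs listed in young fruit only (blue) and at mature green only (orange), where Solyc08g080490 reaches 91336 TP10M.

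At mature green the cDNAs with the highest totals of this kind were seed storage proteins. The 2S albumin Solyc08g080490 had 91336 TP10M, and the legumins Solyc09g072560 and Solyc09g090150 had 58849 and 41723. These are the proteins that embryos store as nitrogen reserve. The 3 together made up 1.92% of the 10000000 normalized tags. The albumin was at 2424 TP10M at breaker, and Solyc09g072560 at 641. An oleosin (Solyc12g010920), which coats oil bodies, had 4489 TP10M, and the vicilins Solyc09g065470 and Solyc11g072380 had 3884 and 3482. Of the 19 seed storage, oil body and late embryogenesis cDNAs listed in either library, 15 were listed at mature green only and 1 in young fruit only. Over all 4740 cDNAs listed in either, 21.6% were listed at mature green only and 28.7% in young fruit only. The 3 listed in both libraries were a dehydrin and 2 late embryogenesis abundant proteins, and 2 of the 3 were higher. The dehydrin Solyc04g082200 had 795 and 4615 TP10M. Unlike the albumin, it was higher still at breaker (10273) and in the last library (11889). The dehydrin Solyc02g084840, listed at mature green only of the 2 compared, had 2750 TP10M there, 1733 at breaker and 4615 in the last library. The fruits were whole, so seeds were part of the sample, and the part of seed tissue in the ratios of other members was not tested.

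The other cDNAs among the 10 highest at mature green only were a pathogenesis-related protein (Solyc02g031950, 9424 TP10M), a peroxidase (Solyc04g076770, 4487), a DNAJ chaperone (Solyc04g009770, 4030) and a lipoxygenase (Solyc08g014000, 3638). Some ripening genes also appeared there. A pectate lyase (Solyc03g111690), which cuts pectin in softening fruit, had 2352 TP10M at mature green, 20831 at breaker and 24025 in the last library. XTH14 (Solyc01g081060) had 3019, 4163 and 11152 TP10M. Both were chosen for mention after their values were seen. Of 33 ethylene cDNAs 11 (33.3%) were listed at mature green only and 4 (12.1%) in young fruit only. Of 6 polygalacturonases, pectin-cutting enzymes, 2 were listed at mature green only and 3 in young fruit only, so they did not point one way. The ACC oxidases had 2 listed at mature green only and 3 in young fruit only, and the ACC synthases 1 and 1. Of the expansins 0 were listed at mature green only and 2 in young fruit only.

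In young fruit an acyl-CoA thioesterase (Solyc01g094530) had 74062 TP10M, the highest total of that library, but it was listed through 1 site with a peak of 0 TP10M. A gene of unknown function (Solyc07g043000) followed at 18863 TP10M. A nucleoside diphosphate kinase (Solyc01g089970) had 10196 TP10M and was listed again in the later libraries, at 7114 and 7804. It is an example of a gap in listing at mature green only. A histone H3 (Solyc05g051500, 9069 TP10M), a cellulose synthase family gene (Solyc07g043390, 8787), a serine hydroxymethyltransferase (Solyc05g053810, 6773) and tubulin alpha-7 (Solyc02g087880, 6159) were listed in no later library. Tubulin alpha-7 had 9 distinct listed positions. The histone H3 and the serine hydroxymethyltransferase were each listed through 1 site with a peak of 0 TP10M. The cellulose synthase family gene was listed through 1 site with a peak of 2 TP10M. The rest of the 10 were a chaperonin (Solyc01g028810, 6104), a proteinase inhibitor (Solyc11g021060, 5536) and a polyphenol oxidase (Solyc08g074620, 5276).

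Over all cDNAs listed in either library, 28.7% were listed in young fruit only and 21.6% at mature green only. By list, young fruit only held 26 of 49 cyclin, kinesin and mitosis cDNAs (53.1%) and 17 of 36 for DNA replication and repair (47.2%). Mature green only held 7 (14.3%) and 5 (13.9%) of them. Of 9 histones 1 was listed in young fruit only and 1 at mature green only (Solyc06g074750, an H2B at 178 TP10M). Pectin enzymes and expansins had 17 (54.8%) and 4 (12.9%) of 31, and RNA-binding and processing genes 68 (34.7%) and 25 (12.8%) of 196. Vesicle traffic went the other way, with 11 of 92 listed in young fruit only and 23 at mature green only, and so did lectins, chitinases and related proteins, with 1 and 7 of 16.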

How the data were processed

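PARE libraries of whole tomato fruit were compared, 1 per stage, so no test or p-value of difference was computed. Per the file headers, the authors' 3 deposited tables hold CleaveLand output for ITAG2.3 cDNAs, listing peaks opposite positions 9, 10 and 11 of a small RNA. Per the file headers the values are in tags per 10000000 (TP10M). They hold whole numbers only and are treated as a normalized score rounded by the authors, not as read counts. Deposited p-values and q-values were not used. CASAVA 1.8.0 appears in the submitters' processing notes. Aligner, tag filters and library depths are not stated in any source used here, and per the labels' protocols bar-coded samples were pooled for sequencing.

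The 12952 entries were pooled with Python 3.11.15, pandas 2.3.3 and numpy 2.4.6. Totals did not differ between entries of a cDNA (0 exceptions). Members needed 50 TP10M in either library, a pseudocount of 1 TP10M was used and calls were 2-fold. Of the members, 3 had a highest total of exactly 50, 2 cDNAs at 49 were left out, and 129 members lay between 1.9-fold and 2.1-fold. The code was tested on simulated totals. Annotation words defined 47 lists holding 1288 members. The members and lists were chosen with earlier results of these data known, and the lists were reworked after values had been seen. Named genes are the 10 largest and 10 smallest ratios, the 5 highest totals per library, the extremes and highest totals of lists, the 10 highest totals listed in 1 library only and targets with a category 0 or 1 peak at position 10. Other genes are further examples, chosen after their values were seen.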

Additional observations from a re-analysis of the deposited data

How the results depend on the processing

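The counts of members at least 2-fold higher (234) and lower (420) stayed within 1.5 times under another pseudocount, none, scaling, other minimums from 0 to 100 TP10M, identical cDNAs counted once and the lowest total per cDNA, at 215 to 306 and 294 to 440. With the position 10 table only, 1156 members remained and the counts were 117 and 223. At a 4-fold limit they were 59 and 99. The median log2 ratio was -0.23, -0.26 with the position 10 table only and -0.008 after size-factor scaling, which centres the ratios by design. The 2385 cDNAs listed in 1 library only became 1886 with the position 10 table only, and 1927 and 2257 with minimums of 50 and 10 TP10M. The count of 25 sites where peak and rest of the cDNA differed by 2-fold was 25, 19 of 36 and 18 of 33 under alternatives chosen after seeing the data (a pseudocount of 5, a minimum of 100 TP10M and category 0 in both libraries). Under 3 alternatives also chosen then, 12 of 141 list medians changed sign, none of them past 2-fold, and all 40 recomputed values of the 20 most extreme ratios stayed past 2-fold.

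No paired analysis was possible because each stage has 1 library. Depth is unknown, so no counting interval is given, and peaks of a few TP10M carry no difference by themselves.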

Other observations

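The spread of the ratios was wider in the lowest and highest quintiles of level than between them. In the lowest quintile by geometric mean total, from 16.5 to 145 TP10M, the quartiles of the log2 ratio were -0.89 and 0.31, with 60 members higher and 103 lower. In the highest quintile, from 790 to 53150 TP10M, they were -0.97 and 0.35, with 56 higher and 109 lower. In the middle quintile they were -0.67 and 0.35, with 37 higher and 71 lower. In the second quintile they were -0.64 and 0.27, with 38 higher and 63 lower, and in the next to highest -0.77 and 0.31, with 43 higher and 74 lower.

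Peaks that hold a large part of the total were rare among the members. At 5 days after pollination 25 of 2244 members had 20% or more of the total at their largest listed peak, and 24 of them belonged to the target classes with a category 0 or 1 peak at position 10. At mature green 29 members did, 25 of them in those classes. The category was part of how these targets were chosen, so the overlap is a description. Solyc01g098770, annotated as a xylanase inhibitor, was outside the classes, with a peak of 5 TP10M of 22 at 5 days after pollination and 1 of 73 at mature green.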
